A study of Mus musculus with 16 samples.

Results

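The difference between HFD and CHOW that control and mutant mice share was measured in whole pituitary glands, with all 16 mice of the series, 8 on HFD and 8 on CHOW. Each gene was fitted with 1 term for genotype and 1 for diet on log2(normalized expression + 0.5), and the diet term is the value reported here. The mice were females of 27 weeks on a mixed CD-1;129P2 background. Controls (Ctrl in the labels) carried the floxed Esr1 fl/fl allele without Cre. Mutants (Esr1Nkx2-1Cre mutant in the labels) had Esr1, the gene for oestrogen receptor alpha, removed by a Cre that Nkx2-1 drives, and so in the lineage that has expressed this factor. In each genotype 4 mice ate standard chow (CHOW) and 4 ate a high-fat diet (HFD) for 17 weeks. Nkx2-1 is known from the hypothalamus and the posterior lobe, and the labels do not say which pituitary cells carried the deletion. Hormone cells of the anterior lobe may therefore have kept Esr1 in the mutants.

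The anterior pituitary holds lactotrophs, somatotrophs, corticotrophs, thyrotrophs and gonadotrophs, each defined by the hormone it secretes, and these cells take signals from the hypothalamus and feedback from peripheral hormones such as leptin, glucocorticoids and oestrogen. A diet rich in fat is known to raise body fat and circulating leptin and insulin in mice, and it can shift feeding and daily rhythms. The circadian clock is a loop in which ARNTL (BMAL1) with CLOCK or NPAS2 activates the Per and Cry genes through E-boxes, and PER and CRY proteins then repress their own activators. REV-ERB proteins (Nr1d1, Nr1d2) repress Arntl and Npas2, and the factors DBP, TEF and HLF carry the rhythm to output genes through D-boxes.

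All 16 libraries carried the defining transcripts of the gland, with Prl alone giving between 28.8% and 40.6% of the summed values. The sums ranged from 908897 to 1335782. For 1426 genes with 1 annotated transcript, reads were estimated from the steps between low values, at between 843700 and 1260772 per mouse. Esr1 lay between 29.0 and 46.6 in controls on CHOW, between 23.6 and 43.4 in controls on HFD, between 10.02 and 22.2 in mutants on CHOW and between 21.55 and 33.4 in mutants on HFD, so that the genotypes did not overlap on CHOW and overlapped on HFD. A pair of libraries stood apart. P357, a mutant on CHOW, and P392, a control on HFD, had mean log2 values of 1.04 and 2.64 for 5 melanotroph genes of the intermediate lobe, and 1.44 and 1.45 for 6 posterior lobe genes, the lowest of their groups. P392 also had the highest mean log2 values of the controls for endothelial genes (4.60, against 3.45 to 3.61 in the other controls on HFD). The same held for pericyte and fibroblast genes (3.59 against 2.43 to 2.59) and the 1 adipocyte gene tested (4.73 against 2.89 to 2.96). Mutants had 4.11 to 4.39, 2.59 to 3.54 and 3.84 to 4.91 in the same order. For oestrogen-induced genes P392 stood at 6.19, with mutants at 5.92 to 6.22 and the other controls at 4.94 to 5.75. For ATF4 and amino acid response genes it stood at 4.44, with mutants at 4.09 to 4.39 and the other controls at 3.65 to 3.94. P392 is labelled a control and was kept as one, and why it lay near the mutants was not tested. P357 stood at 12.84 for mitochondrially encoded genes, against 10.99 to 11.59 in the other 15 mice. The labels also number the mice in 2 ranges, P339 to P359 and P381 to P392. All 4 controls on HFD came from the upper range and 3 of the 4 controls on CHOW from the lower one, whereas the mutants held 1 lower and 3 upper mice on CHOW and 2 of each on HFD. Within controls diet and number range are thus told apart by P383 alone, the 1 control on CHOW from the upper range, and what the ranges stand for is not stated. The hour of day at which glands were taken is not given in the sources used here.

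Of the 14345 genes tested, 1 differed between the diets at an adjusted p under 0.05, which is 0.00697% of genes (limma, Benjamini-Hochberg). It was Plat, and it fell on HFD. At an unadjusted p under 0.05 there were 745 genes, 5.19% of those tested, with 361 higher on HFD and the others lower (53.3% of all tested genes had a positive difference), and 736 of them had the same sign in both genotypes, a share that the additive fit favours because it averages the genotypes. The diets compared within 1 genotype gave 0 genes at an adjusted p under 0.05 in controls, with 592 at an unadjusted p under 0.05, and 0 in mutants, with 717. The interaction of genotype and diet gave 0 genes, with 602 at an unadjusted p under 0.05 (limma; no other tool was run).

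Diet differences of controls and of mutants come from separate mice, although their errors share 1 variance estimate, and across genes they were weakly related. Over the 14345 genes, Pearson's r between them was 0.0889 and Spearman's rho 0.0404, which describe genes and not independent replicates, and 50.7% of genes had the same sign in both. Among the 120 genes with an unadjusted p under 0.01 in controls, 75 (62.5%) had the same sign in mutants and 12 of them also had an unadjusted p under 0.05 there. Starting from the 113 such genes in mutants, 69 (61.1%) had the same sign in controls, 15 of them with an unadjusted p under 0.05. The plot of the diet difference in controls against that in mutants shows a nearly round cloud.

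**Figure D1:**
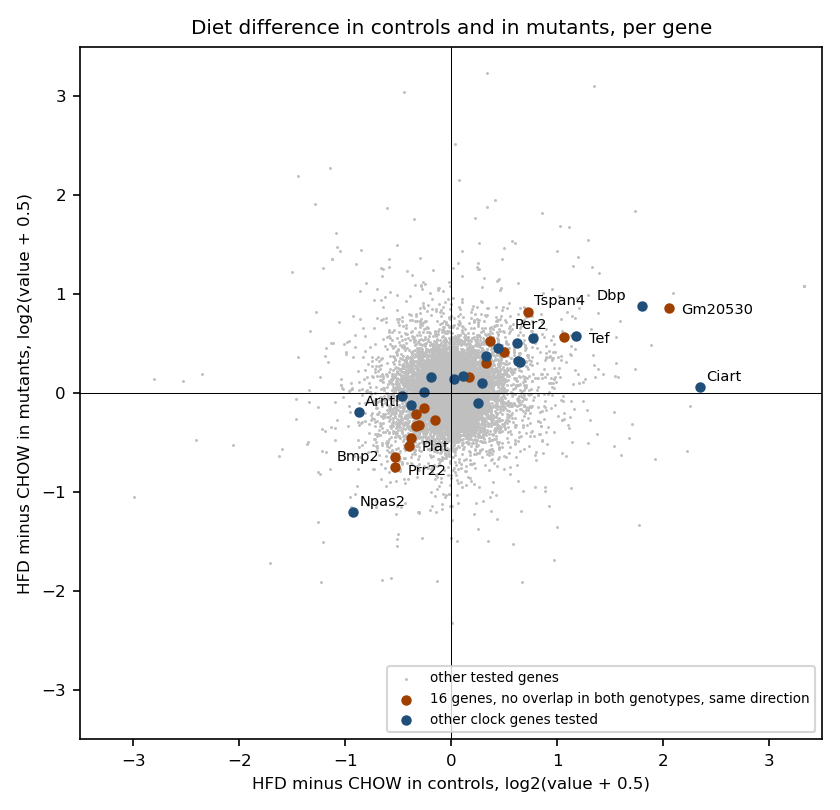
Diet difference of each tested gene in controls (horizontal axis) and in mutants (vertical axis), both as HFD minus CHOW on log2(value + 0.5) with 4 mice against 4 in each genotype. Brown points are the 16 genes whose diets did not overlap in the same direction in both genotypes, blue points the other clock genes tested, grey points all others, and 4 genes lie outside the axes. The grey cloud is nearly round (Pearson's r = 0.0889 over all genes), and Ciart lies at 2.35 in controls and 0.06 in mutants.

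Plat encodes tissue plasminogen activator, the secreted protease that turns plasminogen into plasmin (ENSMUSG00000031538, chromosome 8 of GRCm38, 22757727 to 22782844, plus strand). Its normalized expression in controls on CHOW was 24.71, 25.91, 26.55 and 26.67, and in controls on HFD it was 19.07, 19.35, 19.44 and 20.21. In mutants on CHOW it was 32.2, 33.2, 33.9 and 42.4, and in mutants on HFD it was 23.1, 23.8, 24.2 and 25.1. The 24.71 belonged to P383. Every HFD mouse lay below every CHOW mouse of its genotype, and mutants lay above controls on each diet. The shared diet difference was -0.47 on the log2(value + 0.5) scale (standard error 0.06, adjusted p = 0.0188 from limma), or a ratio of 0.721. It was -0.40 (standard error 0.09) in controls and -0.54 (standard error 0.09) in mutants, a difference between genotypes within its error (interaction, adjusted p = 0.924 from limma). Of the 16 fits that each left out 1 mouse, Plat passed in 4, those without P357, P383, P384 or P385, and had an adjusted p between 0.0530 and 0.0840 in the other 12 (limma), while the difference stayed between -0.49 and -0.43. Without both P357 and P392 it was -0.42 (adjusted p = 0.00387 from limma), with the number range as a covariate -0.46 (adjusted p = 0.0356 from limma), and within the upper number range alone, 6 HFD mice against 4 CHOW mice, it was -0.39 (adjusted p = 0.803 from limma).

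Counted without a model, 16 genes, 0.112% of those tested, had diets that overlapped neither in controls nor in mutants and moved the same way in both, 7 higher and 9 lower on HFD, and 6 genes moved in opposite directions with no overlap. In 5 of the 16 the diets did not overlap even with the genotypes pooled, namely Fam76a, which was higher, and Prr22, Borcs8, Tha1 and Map6, which were lower. None but Plat passed the adjusted test, so the values below are descriptions of genes picked for their separation. All 16, Plat included, have by construction the smallest two-sided exact permutation p of 4900 arrangements within genotypes, 0.000408, and nothing is read from it.

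**Figure D2:**
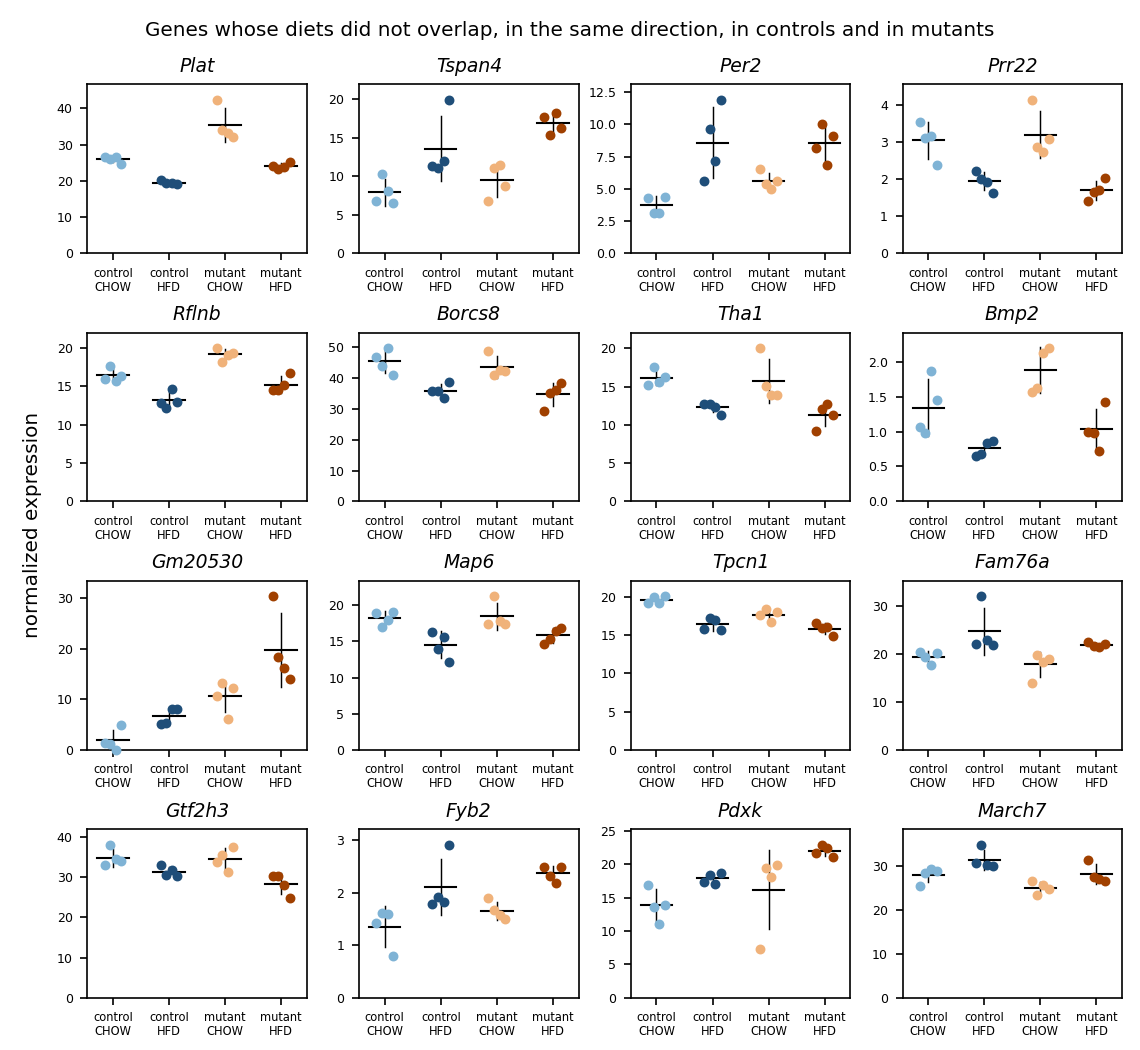
Normalized expression of the 16 genes with no overlap between diets in either genotype, 1 point per mouse, 4 mice per group, with a horizontal line at the mean and a vertical line over 1 SD to each side. Plat stands at 19.1 to 20.2 in controls on HFD against 24.7 to 26.7 on CHOW, and P357 is the lone low mouse of Pdxk at 7.34.

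Of the genes higher on HFD, Tspan4 encodes a tetraspanin membrane protein. Its values on CHOW had a lowest of 6.502, a median of 8.38 and a highest of 11.5, and on HFD 11.1, 15.8 and 19.95, so that the diets overlapped only across genotypes. Tspan4 differed by 0.77 (standard error 0.14, adjusted p = 0.224, limma), by 0.73 in controls and by 0.82 in mutants. It shares exonic sequence with Chid1 on the opposite strand, and whether counting used the strand is not given, so the 2 genes cannot be separated here. Per2, a repressor of the clock loop, ran from 3.11 to 6.51 with a median of 4.69 on CHOW, and from 5.64 to 11.9 with a median of 8.67 on HFD. Both genotypes were higher on HFD, by 1.07 in controls and 0.56 in mutants, for a shared difference of 0.82 (standard error 0.15, adjusted p = 0.224 from limma). Fam76a, a gene of no settled role, had 14.03 to 20.5 on CHOW and 21.4 to 32.1 on HFD, a difference of 0.31 (standard error 0.09). Also higher were Fyb2, an adaptor protein (0.45), Pdxk, the kinase that makes active vitamin B6 (0.45, and 0.29 without P357), and March7, a ubiquitin ligase (0.16). Pdxk, March7 and Fam76a share sequence with other genes, which could move reads between them. Gm20530, a pseudogene that shares sequence with Vps52, was listed at 0 in 1 control on CHOW and reached 30.4 in mutants on HFD.

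Besides Plat, 8 of the 16 genes were lower on HFD, of unlike known functions. Borcs8, a subunit of the complex that positions lysosomes, lay between 41.1 and 49.8 on CHOW and between 29.3 and 38.8 on HFD. The difference of -0.33 (standard error 0.07, adjusted p = 0.230, limma) was -0.33 in each genotype, and Borcs8 overlaps exons of Mef2b on the same strand. Tpcn1, a cation channel of endosomes and lysosomes, had a small difference of -0.20 (standard error 0.06) with values of 16.8 to 20.1 on CHOW and 14.9 to 17.2 on HFD. Rflnb, a filamin-binding protein of the actin cytoskeleton, ran from 15.7 to 20 on CHOW and from 12.2 to 16.8 on HFD, with -0.31 in controls and -0.32 in mutants. Map6, which stabilizes microtubules, lay between 17.1 and 21.2 on CHOW and between 12.1 and 16.8 on HFD (-0.27, standard error 0.08). Tha1, threonine aldolase, ran from 13.9 to 20.03 on CHOW and from 9.21 to 12.7 on HFD (-0.42, standard error 0.09), and it overlaps the antisense gene Gm11725. Bmp2, a secreted ligand of the TGF-beta family, was low throughout, at 0.978 to 2.19 on CHOW and 0.654 to 1.43 on HFD (-0.59, standard error 0.15). Prr22, a proline-rich protein, was 2.36 to 4.13 on CHOW and 1.39 to 2.22 on HFD (-0.64, standard error 0.12, adjusted p = 0.224 from limma). Gtf2h3, a subunit of the transcription and repair factor TFIIH, had a difference of -0.21 (standard error 0.06). Over the 745 genes past an unadjusted p of 0.05, the median size of the difference was 0.37, and 5 of the lower genes named here lay below that size.

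The next genes by unadjusted p with the same sign in both genotypes had diets that overlapped in at least 1 genotype. Acot1, a cytosolic acyl-CoA thioesterase, had a lowest of 3.13, a median of 6.15 and a highest of 8.49 on CHOW and 1.995, 2.77 and 4.07 on HFD. Over both genotypes it differed by -0.93 (standard error 0.18, adjusted p = 0.224 from limma), and by -0.71 in controls and -1.15 in mutants. Acot1 shares sequence with Acot2, Acot3, Acot5 and Acot6. Mettl7a1, a methyltransferase with near-identical neighbours Mettl7a2 and Mettl7a3, was 34.3 to 48.96 on CHOW and 43.6 to 83.3 on HFD (0.56, standard error 0.11, adjusted p = 0.230 from limma). Cyp2a5, a cytochrome P450 close in sequence to Cyp2a4, was 1.58 to 10.3 on CHOW and 7.74 to 14.6 on HFD (1.16, standard error 0.27). The family members of these 3 genes can exchange reads, so their values are uncertain one by one. Prrx1, a homeobox factor of mesenchymal and stem cells, was 2.69 to 4.29 on CHOW and 3.997 to 5.28 on HFD (0.41, standard error 0.10). Others higher on HFD were Scoc (0.24), Sertad3 (0.36) and the ribosome assembly factor Pes1 (0.35). The lower ones were Mdm1, a protein of centrioles (-0.65), Cstad (values of 1.26 to 3.885 on CHOW and 0.489 to 2.84 on HFD), the annexin Anxa3 (-0.43), the dynein light chain Dynlt1f (-0.35) and Tex26 (-0.83). In a pair of pseudogenes the fold is not given because of zeros. Gm11331 was listed at 0 in all 4 mutants on CHOW and lay between 5.86 and 27.5 on HFD over both genotypes. Gm37545 ran from 2.61 to 17.7 on CHOW and from 0 to 7.92 on HFD, being listed at 0 in 2 controls on HFD.

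Clock genes were the function list with the largest share of members past an unadjusted p of 0.05, 60.0%, followed by hormone genes with 57.1%. Of its 20 tested members, 9 were higher and 3 lower on HFD at an unadjusted p under 0.05, against 5.19% of all genes, and 0 passed the adjusted test. Counted at any p, 14 members were higher and 6 lower. Single values are given only for the members past that p and for Nr1d1, so they show the members that differed most clearly. The remaining members enter only through the list's counts, means and medians. Members of this loop regulate one another, so they are not 20 independent results. The list's mean log2 value was 3.61 to 3.99 in controls on CHOW and 3.75 to 4.44 in controls on HFD, which overlap. It was 3.67 to 3.94 in mutants on CHOW and 3.95 to 4.04 in mutants on HFD. The list's median difference was 0.27, against 0.01 over all tested genes, and it was 0.31 in controls and 0.17 in mutants. Among output factors, Dbp had a lowest of 11.2, a median of 24.7 and a highest of 46.1 on CHOW, and 41.1, 54.3 and 139.8 on HFD. Only P383, a control on CHOW, reached into the range of the HFD mice in Dbp. Dbp differed by 1.34 (standard error 0.28, adjusted p = 0.230 from limma), by 1.80 in controls and by 0.88 in mutants. It overlaps Sphk2 on the opposite strand. Tef, the second output factor, ran from 37.3 to 99.1 on CHOW with a median of 55.1, and from 73.5 to 211.6 on HFD with a median of 105.9 (0.88, standard error 0.21). P383 again held the highest CHOW value.

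Of the repressors, Per3 lay between 12.3 and 25.7 on CHOW and between 17.95 and 55.4 on HFD (0.66, standard error 0.19), and Cry2 had a difference of 0.35. Nr1d2 had a lowest of 28.02 and a highest of 58.3 on CHOW and 46.0 and 88.0 on HFD (0.57, standard error 0.14), with 0.62 in controls and 0.51 in mutants. Its partner Nr1d1 had a difference of 0.45 at an unadjusted p of 0.0703 (limma), and it overlaps Thra. Bhlhe40 (0.47) and Bhlhe41 (0.48), which bind E-boxes as repressors, were higher as well. On the opposite side lay the activators that REV-ERB proteins repress. Npas2 was 1.46 to 5.85 on CHOW and 0.323 to 3.16 on HFD (-1.07, standard error 0.28), lower by a like amount in controls (-0.93) and in mutants (-1.20). Arntl was 12.7 to 27.5 on CHOW and 5.11 to 16.3 on HFD (-0.53, standard error 0.20), with -0.87 in controls and -0.19 in mutants. Cry1 differed by -0.25. Ciart, which represses the ARNTL complex, had unlike values in the 2 genotypes. Its values were 0.659, 0.774, 1.84 and 2.13 in controls on CHOW and 3.98, 9.26, 10.8 and 11.9 in controls on HFD, whereas in mutants the 4 CHOW mice lay between 2.71 and 7.29 and the 4 HFD mice between 3.27 and 5.36. The difference was 2.35 (standard error 0.36) in controls and 0.06 (standard error 0.36) in mutants, and the interaction had an unadjusted p of 0.000365 and an adjusted p of 0.846 (limma). With the number range as a covariate over all 16 mice, 10 of the 20 members had an unadjusted p under 0.05, with Dbp at 1.17, Per2 at 0.79, Tef at 0.71 and Npas2 at -1.02. Within the upper number range alone, 6 HFD mice against 4 CHOW mice, 3 members had an unadjusted p under 0.05, Per2 (0.66), Dbp (0.81) and Npas2 (-0.98). Tef stood at 0.49 there. The part of collection time in these differences was not tested.

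**Figure D3:**
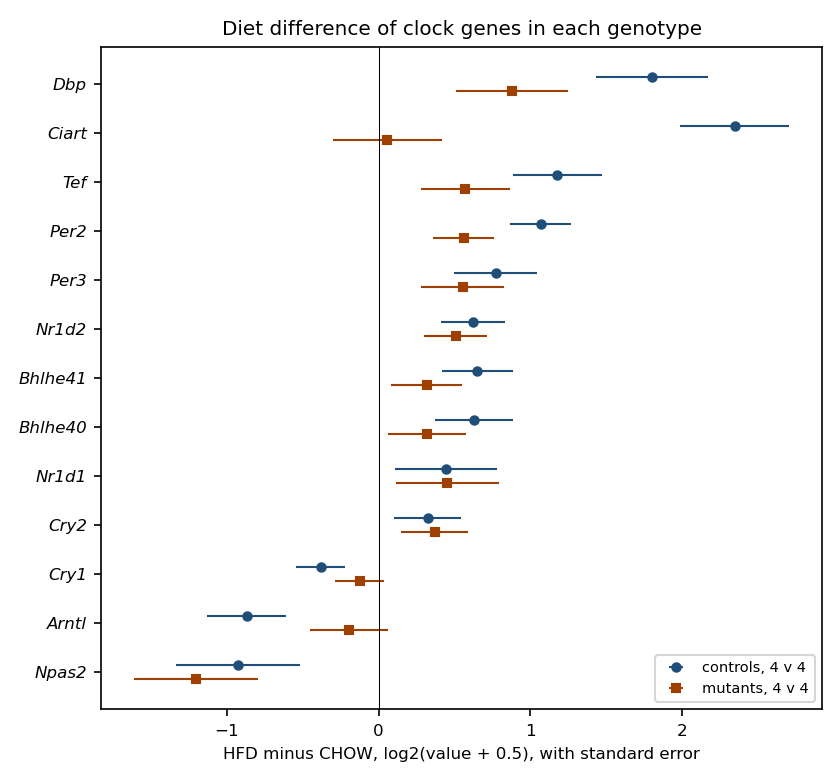
Diet difference of the 13 clock genes whose values are given, as HFD minus CHOW on log2(value + 0.5), in controls (blue circles) and mutants (brown squares), with bars over 1 standard error from the fit with 1 mean per group. Dbp stands at 1.80 and 0.88, Npas2 at -0.93 and -1.20, and Ciart at 2.35 and 0.06.

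The promoters of 4 clock genes are shown because they carry the letters through which the loop is known to act on these members. They are taken from RefSeq on GRCm38.p6, and 220 of the 250 bases before the start are printed from the far end, 5′ to 3′ on the gene's strand, with matches in capitals. Searches on both strands used the E-box CACGTG, the E-prime box CACGTT, the D-box TTATGTAA, its variant TTACGTAA and the ROR element core TAGGTCA, and no printed matches overlap. Per3 (chr4:151044696-151044915, minus strand) holds D-boxes beginning 205 and 158 bases before the start. Tef (chr15:81811164-81811383, plus strand, the downstream one of 2 starts) holds an E-box at 138 bases. Ciart (chr3:95882259-95882478, minus strand) holds E-boxes at 116, 58 and 44 bases. Cry1 (chr10:85185085-85185304, minus strand), the one with the smallest difference of the 4, holds an E-prime box, read on the other strand, at 79 bases and an E-box at 60.
Per3: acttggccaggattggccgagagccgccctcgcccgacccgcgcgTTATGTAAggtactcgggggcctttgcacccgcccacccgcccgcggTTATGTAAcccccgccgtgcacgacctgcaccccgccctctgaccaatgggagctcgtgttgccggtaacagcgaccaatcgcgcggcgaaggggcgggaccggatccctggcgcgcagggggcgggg
Tef: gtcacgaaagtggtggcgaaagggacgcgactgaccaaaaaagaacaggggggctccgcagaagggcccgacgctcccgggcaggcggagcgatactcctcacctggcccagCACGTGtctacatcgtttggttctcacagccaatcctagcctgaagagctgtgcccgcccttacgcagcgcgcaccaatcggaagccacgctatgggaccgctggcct
Ciart: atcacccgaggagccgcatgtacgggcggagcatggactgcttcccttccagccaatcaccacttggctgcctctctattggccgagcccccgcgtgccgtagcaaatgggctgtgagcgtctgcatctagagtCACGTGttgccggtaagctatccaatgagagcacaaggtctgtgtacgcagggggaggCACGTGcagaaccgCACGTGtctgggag
Cry1: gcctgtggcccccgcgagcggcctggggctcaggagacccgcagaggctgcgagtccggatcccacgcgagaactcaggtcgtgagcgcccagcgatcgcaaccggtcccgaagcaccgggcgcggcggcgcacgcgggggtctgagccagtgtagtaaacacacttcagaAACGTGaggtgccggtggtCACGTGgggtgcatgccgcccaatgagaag

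Of the clock list, 17 genes had an entry in the promoter table, and Per2 is named without one. Among the 17, 5 held an E-box, 4 an E-prime box, 1 a D-box, 0 the D-box variant and 1 the ROR element core. Over 27025 mouse genes with windows of the same 250 bases, 6.86% held an E-box, 4.50% an E-prime box, 0.977% a D-box and 2.55% the ROR element core. Dbp, Nr1d2, Npas2 and Arntl held none of these letters in the window, so that members with large differences and members without a match occur together, and a match describes letters and not a bound site.

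Genes for protein folding in the endoplasmic reticulum had small differences, mostly of 1 sign. Of 23 tested members, 21 (91.3%, against 53.3% of all genes) were higher on HFD, 6 of them (26.1%, against 5.19%) at an unadjusted p under 0.05, and 0 passed the adjusted test. The median was 0.18, with 0.24 in controls and 0.08 in mutants. Hspa5, the chaperone BiP, had a lowest of 385.9, a median of 554.3 and a highest of 672.6 on CHOW, and 501.0, 671.8 and 786.3 on HFD, a difference of 0.32 (standard error 0.13, adjusted p = 0.874 from limma). Hyou1 (0.35), Dnajc3 (0.31), Dnajb9 (0.31), Pdia4 (0.22) and Hsp90b1 (0.20), all chaperones, co-chaperones or disulphide isomerases, were higher by like amounts. Ddit3 and Ppp1r15a, the stress effectors of the same list, lay at -0.03 and -0.02. Without P357 and P392, 19 of 23 were higher and 0 had an unadjusted p under 0.05, and with the number range as a covariate 1 did. Summed as a mean log2 value, the list lay between 6.29 and 6.66 in controls on CHOW, 6.30 and 6.92 in controls on HFD, 6.42 and 6.83 in mutants on CHOW and 6.73 and 6.81 in mutants on HFD, so the diets overlapped in both genotypes.

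Of the 7 hormone genes of the anterior lobe, 3 were higher and 4 lower on HFD, with a median of -0.44. At an unadjusted p under 0.05, 4 were lower and 0 higher (57.1%, against 5.19% of all genes), and 0 passed the adjusted test. Only 4 of the 7 had the same sign in both genotypes. Gh, growth hormone, had a lowest of 51690, a median of 66490 and a highest of 95120 on CHOW, and 30460, 47540 and 59600 on HFD (-0.59, standard error 0.23, adjusted p = 0.880 from limma), with -0.46 in controls and -0.72 in mutants. The diets overlapped in both genotypes. Fshb, the FSH beta subunit, ran from 13.2 to 284.2 on CHOW and from 7.34 to 40.6 on HFD (-1.29, standard error 0.50), and its widest spread was among controls on CHOW. Tshb, the TSH beta subunit, differed by -0.44 (standard error 0.19) over both genotypes and by -0.02 within the upper number range. Lhb, the LH beta subunit, was -0.06 in controls and -1.06 in mutants (interaction, adjusted p = 0.924 from limma), and Cga, the alpha subunit that FSH, LH and TSH share, was 0.55 in controls and -0.29 in mutants (interaction, adjusted p = 0.924 from limma). At an unadjusted interaction p under 0.05 (limma) there were 2 of the 7 hormone genes, against 602 of all 14345 genes. Prl, the most abundant transcript of the gland, was 285100 to 496900 on CHOW and 262200 to 438900 on HFD (0.03, standard error 0.38). Pomc was 1654 to 17360 on CHOW and 3443 to 42040 on HFD (0.54, standard error 0.50), and P357 and P392 held both low extremes. Marker lists of the hormone cells, hormone genes included, were also compared. Somatotroph genes had 2 of 4 higher (median -0.03), gonadotroph genes 2 of 4 (-0.25) and thyrotroph genes 1 of 3 (-0.20). Corticotroph genes had 2 of 4 higher (0.04) and lactotroph genes 3 of 3 (0.03). Members lower at an unadjusted p under 0.05 were 1, 2, 1, 1 and 0 in this order, and 0 were higher. Fewer cells of a type and less RNA per cell cannot be told apart in such bulk samples.

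**Figure D4:**
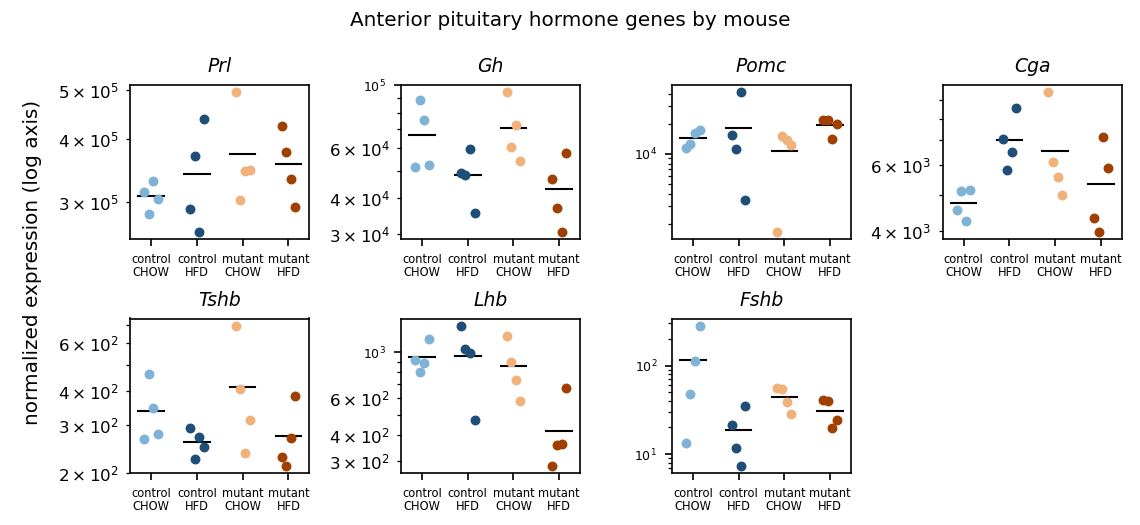
Normalized expression of the 7 anterior pituitary hormone genes on log axes, 1 point per mouse and 4 mice per group, with a line at the mean. Gh reaches 95120 on CHOW and 59600 on HFD with overlap in both genotypes, and Fshb spreads from 13.2 to 284.2 on CHOW.

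Receptors for hypothalamic and feedback signals followed no common direction, with 8 of 18 tested members higher. Crhr1, the CRH receptor of corticotrophs, was 4.03 to 6.53 on CHOW and 2.79 to 4.80 on HFD (-0.34, standard error 0.11), and Sstr5, a somatostatin receptor, differed by -0.41. Immediate early genes, which respond to stimulation within minutes, had a median of -0.20 with 3 of 19 (15.8%, against 5.19% of all genes) lower at an unadjusted p under 0.05. Npas4 was 2.99 to 7.39 on CHOW and 1.68 to 6.40 on HFD (-0.71, standard error 0.19). Egr3 (-1.44) and Arc (-1.08) had differences of -2.41 and -1.60 in controls and of -0.47 and -0.57 in mutants (interaction, adjusted p = 0.924 for each from limma). Of the 19 immediate early genes, 3 had an unadjusted interaction p under 0.05 (limma), against 602 of all 14345 genes. Glucocorticoid-induced genes had 2 of 22 lower (9.09%), Cebpd (-0.59) and the cell cycle inhibitor Cdkn1a (-0.46), and 0 higher. Of the leptin, insulin and JAK-STAT list, Cish, a feedback inhibitor of cytokine and growth hormone receptors, was the 1 member of 26 (3.85%) past an unadjusted p of 0.05 (-0.55). The shares of these last 2 lists lay near that of all genes.

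Genes that handle lipids, the nutrient that HFD adds, were close to the background share of 5.19%. Fatty acid oxidation and PPAR targets had 2 of 33 members past an unadjusted p of 0.05, Acot1 and Cpt1b, the carnitine transferase of muscle type (-0.78), and 17 of 33 were higher. Fatty acid uptake and storage had 1 of 21, the monoacylglycerol lipase Mgll (-0.42), and fatty acid synthesis had 1 of 20, the lipase-like gene Pnpla3 (-0.32). In cholesterol synthesis and uptake, 0 of 24 passed an unadjusted p of 0.05 and 16 were lower, with a median of -0.08. Cholesterol efflux and LXR targets had 1 of 12, the receptor gene Nr1h3 itself (0.37). The median over these 5 lists stayed between -0.08 and 0.07.

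**Figure D5:**
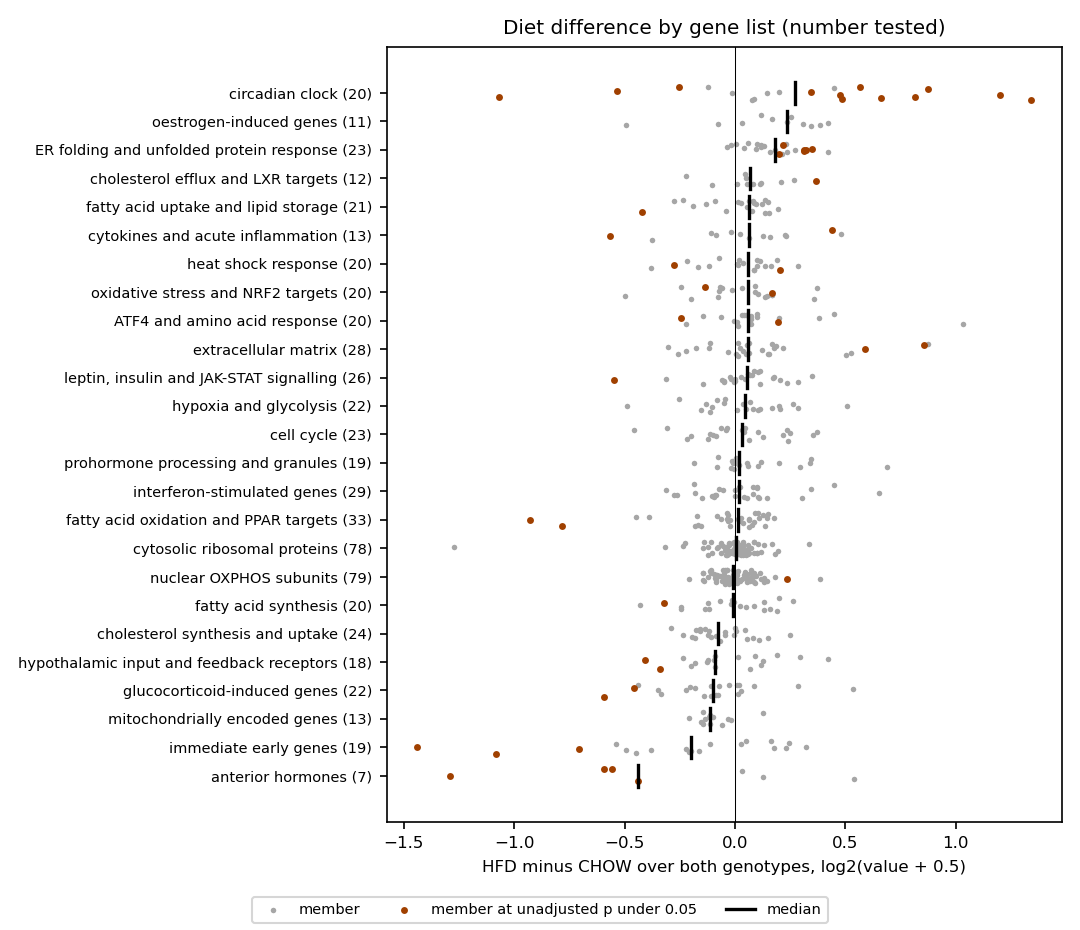
Diet difference over both genotypes, HFD minus CHOW on log2(value + 0.5), for each tested member (points) of 25 gene lists and the list's median (black line), with the number tested in brackets. Brown points had an unadjusted p under 0.05, and clock genes (median 0.27) and hormone genes (median -0.44) lie at the ends.

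Other lists gave few differences. ATF4 and amino acid response genes, heat shock genes and NRF2 targets had 1 member higher and 1 lower each of 20. Cytokine and inflammation genes had the receptor Il1r1 lower (-0.57) and Tlr2 higher (0.44) of 13 tested. The matrix list had 21 of 28 higher, with the metalloproteinase inhibitors Timp3 (0.59) and Timp1 (0.86) past an unadjusted p of 0.05, and Timp1 stood at 30.0 in P392 against 5.503 to 7.62 in the other controls on HFD. Interferon-stimulated genes (0 of 29), prohormone processing and granule genes (0 of 19), cell cycle genes (0 of 23), hypoxia and glycolysis genes (0 of 22), oestrogen-induced genes (0 of 11), mitochondrially encoded genes (0 of 13) and cytosolic ribosomal proteins (0 of 78) had no member past an unadjusted p of 0.05. Nuclear OXPHOS subunits had 1 of 79. Oestrogen-induced genes had 9 of 11 higher (median 0.24), with medians of 0.16 in controls and 0.01 in mutants. Medians of controls and mutants had opposite signs in 5 of these lists. They were 0.09 and -0.08 for interferon-stimulated genes, and -0.10 and 0.22 for prohormone processing and granule genes. The others were the mitochondrial, ribosomal and OXPHOS lists. In each of these 3, P357 had the highest mean log2 value of the mutants on CHOW. Ribosomal protein genes were higher on HFD in 76 of 78 in controls (median 0.14) and in 9 of 78 in mutants (median -0.13), with 11 at an unadjusted interaction p under 0.05. Mitochondrially encoded genes were higher in 12 of 13 in controls (median 0.08) and in 0 of 13 in mutants (median -0.37). Their mean log2 value was 12.84 in P357, 11.14 to 11.27 in the other mutants on CHOW and 11.08 to 11.59 in mutants on HFD. OXPHOS subunits were higher in 70 of 79 and in 14 of 79, with 6 at that interaction p, and no gene passed the adjusted interaction test. Of all 14345 genes, 7212 were higher in controls and 7775 in mutants, and 602 had that interaction p. Members of each of these lists vary together, so their counts are not independent results.

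Markers of the cell types that a dissected gland can hold were compared between the diets in the same way. Over all tested genes 53.3% were higher on HFD and 5.19% had an unadjusted p under 0.05. Melanotroph genes were higher in 5 of 5 with a median of 0.53 and 0 at an unadjusted p under 0.05, and they had the low value of P357 on the CHOW side. By genotype, 1 of 5 was higher in controls (median -0.29) and 5 of 5 in mutants (median 1.31), with 0 members at an unadjusted interaction p under 0.05. Posterior lobe genes had 3 of 6 higher and 0 at an unadjusted p under 0.05. Macrophage genes were higher in 14 of 18 with 1 at an unadjusted p under 0.05, Cx3cr1 (0.55), but in 17 of 18 in controls (median 0.31) and 8 of 18 in mutants (median -0.04). Endothelial genes were higher in 8 of 11 with 1 past that p, Flt1 (0.52), which was 17.5 in P392. Red blood cell genes were lower in 5 of 5 with a median of -0.42, Alas2 at -0.59 being the 1 past an unadjusted p of 0.05. Brain genes had 7 of 9 higher, with Gad2 at 0.75 the 1 past that p. Stem and folliculostellate cell genes had 2 of 6 higher and 4 lower (median -0.03), and Prrx1 was the 1 past it. Of these 6, 6 were higher in controls and 1 in mutants. Pericyte and fibroblast genes had 6 of 8 higher and 0 past that p, and of the adipocyte, lymphocyte and cartilage, bone and muscle lists only 1, 3 and 2 genes were high enough to test, with 0 past it. Mean log2 values of red blood cell genes were 5.84 to 8.16 in controls on CHOW, 6.002 to 7.13 in controls on HFD, 7.58 to 8.66 in mutants on CHOW and 6.86 to 7.67 in mutants on HFD. Those of melanotroph genes were 4.29 to 4.80, 2.64 to 5.19, 1.04 to 4.56 and 4.65 to 5.10 in the same order. The part of these markers in the gene differences above was not tested beyond the fit with the mean of posterior lobe and melanotroph genes as a covariate, in which Plat stood at -0.45 (adjusted p = 0.00609 from limma) and Per2 at 0.88 (adjusted p = 0.0438 from limma).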

How the data were processed

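Pituitary RNA from 16 female mice was sequenced as 1 library per mouse. Per the labels, reads were quantified with kallisto against mm10 and tested with sleuth by the authors. Versions, annotation release, strand setting and filters are not given in the sources used here. The deposited file gives 1 normalized expression signal per gene and mouse, in a unit the authors do not name, and it is taken as comparable between libraries. In genes with 1 transcript, 83.3% to 93.6% of low values lay within 0.15 read of a whole multiple of 1 read. The size of 1 read was fitted to these same values in each mouse, so this share describes the fit and is no separate test. Whole reads could not be recovered for other genes, so no count test was run.

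Of 17362 genes listed, 17351 had a symbol. The 14345 with a mean of at least 1 were tested as log2(value + 0.5), a scale that understates changes of low genes, with limma 3.58.1 in R 4.3.3 (genotype + diet, eBayes with trend, Benjamini-Hochberg adjustment at 0.05). A second fit with 1 mean per group gave diet in each genotype and the interaction. The fit was tested on simulated data first. Single genes had two-sided exact permutation tests within genotype. Genes with a match of 90% identity over 100 bp by BLAST 2.17.0 are named as sharing sequence, and coordinates are GENCODE M21 on GRCm38. Figures used Python 3.11.15 and matplotlib 3.10.9.

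Genes and lists were chosen with earlier results of these data known. Named genes were those past the adjusted test, then up to 12 per direction by unadjusted p with the same sign in both genotypes, genes with no overlap in either genotype (up to 20), hormone genes and up to 4 per list. The 13 clock genes described, of 20 tested, and Dnajb9, Pdia4, Ddit3 and Ppp1r15a were picked after their values were seen. Replicates are separate mice by their labels' animal numbers, which pair no samples between groups. Alternatives were other filters, pseudocounts, scalings, variance models, covariates, thresholds and mice left out.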

Additional observations from a re-analysis of the deposited data

Results flagged for a closer look

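Each of the 73 genes named was checked in each of 4 groups for a lone extreme mouse (Dixon's test). Of these 292 checks 21, or 7.19%, found one, where chance gives about 1 in 20. The 21 fell on 9 mice, 6 on P357 and 5 on P392.

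P357, a mutant on CHOW, stood at 42.4 for Plat (others 32.2 to 33.9), 17.7 for Gm37545, 7.34 for Pdxk (others 18.0 to 19.9), 7.90 for Cry1, 5.54 for Npas4 (others 2.99 to 3.06) and 36.5 for Timp3 (others 71.9 to 72.9). P392, a control on HFD, stood at 19.95 for Tspan4 (others 11.1 to 12.02), 2.91 for Fyb2, 30.04 for Timp1 (others 5.503 to 7.62), 17.5 for Flt1 (others 4.68 to 6.37) and 5.67 for Gad2.

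P383, a control on CHOW, stood at 99.1 for Tef (others 47.8 to 51.55) and 10.2 for Tex26. P390, a control on HFD, stood at 32.1 for Fam76a, 5.11 for Arntl (others 12.1 to 13.6) and 34.96 for March7. The remaining mice were P388, a mutant on HFD, at 125.6 for Tef (others 73.5 to 81.2), P387, a mutant on HFD, at 71.7 for Timp3, P381 at 21.2 for Map6 and P384 at 57.3 for Bhlhe40, both mutants on CHOW, and P356, a control on CHOW, at 5.88 for Flt1.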

How the results depend on the processing

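Over 2173 alternatives for the 73 named genes, 2150 kept the direction and the side of the threshold, and 6 in 3 genes lost the direction. Gh and Prl became 0 with quantile normalization, since each held the same rank in every library, Pomc was -0.011 in the upper number range, and Prl ran from -0.035 to 0.11 when each mouse was left out. The count of 1 gene past the adjusted test became 2 with the number range as a covariate (Gm11331 joined) or with the lobe score (Per2 joined), 0 at a threshold of 0.01, and 0 to 2 when each mouse was left out (Mettl7a1 joined without P385). In the upper range alone the 1 gene was Gm11331, not Plat. There, 495 genes had an unadjusted p under 0.05 and 3 clock genes did. The endoplasmic reticulum list had 1 member past that p with the range as a covariate, 1 in the upper range, 1 with array weights and 0 without P357 and P392, and 1 to 12 when each mouse was left out. Genes without overlap in either genotype were 34 without P357 and P392 and 18 to 34 without each mouse, as fewer mice overlap less often. Left-out mice gave 0 to 6 genes in controls, 0 to 1 in mutants (Gm11331) and 0 to 1 in the interaction (Alox12e), the highest without P383. The lists' and unadjusted counts were added to these alternatives after the data were seen. No paired analysis was possible because the labels carry animal numbers and none shared between groups. The total depth behind the values is unknown.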

Other observations

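Without P383, 6 genes passed the adjusted test between diets in controls (limma), namely Alox12e, Alox15, Ciart, Dbp, Gm20530 and Ptges3l, against 0 with all mice. These genes were singled out after their counts were seen, and 2 of them, Ciart and Dbp, are clock genes. Dbp was 46.1 in P383 and 11.2 to 17.7 in the other controls on CHOW.

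The 6 genes whose diets did not overlap in either genotype but moved in opposite directions were Tubb2b, Gm45246, Gen1, Pcdh1, Pglyrp1 and Astn1. Pglyrp1, a secreted protein that binds bacterial cell walls, was higher on HFD by 1.13 in controls and lower by -0.96 in mutants, with an unadjusted interaction p of 0.000116 and an adjusted p of 0.415 (limma). The tubulin Tubb2b was 0.67 in controls and -0.28 in mutants. Gm45246 had 0.68 and -0.99, with an adjusted interaction p of 0.157 (limma).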
